A study of Mus musculus with 6 samples.

Results

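The cells described here are T cells of the normal mouse kidney that carried RNA of cell division genes. They were chosen in the control CD4 and control double negative (DN) libraries as barcodes with at least 500 detected genes, at most 20% mitochondrial UMIs (unique molecular identifiers, 1 per captured RNA molecule), at least 1 UMI over Cd3d, Cd3e and Cd3g, and at least 3 UMIs summed over Mki67, Top2a, Birc5 and Pclaf. Of the 9518 Cd3 barcodes of the control CD4 library 489 met this rule, a share of 5.14% (exact 95% Clopper-Pearson interval 4.70 to 5.60). Of the 9309 Cd3 barcodes of the control DN library 404 met it, a share of 4.34% (3.93 to 4.77). Together they were 893 of 18827 Cd3 barcodes in both libraries, out of 54039 barcodes in the series. They are called cycling CD4 and cycling DN T cells below, and the remaining Cd3 barcodes of the same library are called the other CD4 or other DN T cells. The name cycling stands for the rule alone, since 294 of the CD4 and 248 of the DN cells had 3 to 9 rule UMIs and were on average closer to the other cells in division RNA than to cells with 10 or more.

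The series profiled T cells sorted from mouse kidney by 3′ droplet single-cell RNA-seq in 6 libraries, 1 each of the CD4, CD8 and DN subsets for normal kidney (control) and for kidney after ischemia-reperfusion (IR). All mice were male wild-type C57BL/6J animals aged 7 to 8 weeks. IR mice had both renal pedicles clamped for 30 min under sodium pentobarbital anesthesia, and control mice are described only as normal. Live CD45+ TCRβ+ cells were sorted by surface CD4 and CD8α, so DN T cells are TCRβ+ cells with neither coreceptor. Each group was 1 library, and the number of mice behind a library is not given in the sources used here, so no difference between libraries can be tested. Intervals cover counting error only, since UMIs and cells of 1 library are not replicates.

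A dividing cell first copies its DNA in S phase and then separates the copies in mitosis. Mki67 encodes a protein that coats mitotic chromosomes, Top2a a topoisomerase that untangles DNA, Birc5 a subunit of the chromosomal passenger complex, and Pclaf a partner of the replication clamp. In T cells, division follows activation through the T cell receptor or cytokines, and resting cells hold division back with factors such as Klf2 and p27 (Cdkn1b). The paper names PD-1+ (Pdcd1) and NK1.1+ (Klrb1c) cells as the major subsets of kidney DN T cells. Part of the DN T cells thus carry natural killer receptors of the Klr family together with their T cell receptor. The pooled values below do not separate these subsets.

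The cycling cells held more RNA than the others. The median was 13583 UMIs in cycling CD4 T cells against 7164 in the other CD4 T cells, and 15883.5 against 8461 in the DN library. A sum of 3 UMIs over 4 genes is met more easily at greater depth. Mitochondrial shares were close to those of the other cells, with medians of 2.08% against 2.12% in CD4 and 1.79% against 1.74% in DN. The 5% of barcodes with the most UMIs, a range in which doublets lie, held 192 (39.3%) of the cycling CD4 and 153 (37.9%) of the cycling DN T cells, against 3.44% and 3.6% of the others. The paper left out the top 5% of barcodes by total reads as potential doublets. Such barcodes were kept here except where stated. Of the cells with 10 or more rule UMIs, 64.1% in CD4 and 64.7% in DN were among the 5% of barcodes with the most UMIs. No doublet caller was run, and the part of doublets in the values below was not tested. Thinned to 3000 UMIs per cell, 2.27% of CD4 (189 of 8313, 1.96 to 2.62) and 1.61% of DN T cells (144 of 8919, 1.36 to 1.90) still held 3 UMIs of the 4 genes, with 1178 and 374 shallower cells left out and cells with no Cd3 UMI after thinning also left out, here and at 1000 UMIs.

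Some cell barcodes occurred in more than 1 control library. These were 6 (1.23%) of the cycling CD4 and 36 (8.91%) of the cycling DN T cells, against 0.598% and 0.764% of the others. In all 6 of the CD4 and in 34 of the 36 DN cells the copy used here was the deeper one. Its median was 50659.5 UMIs in CD4 and 40300.5 in DN, and the other copy had medians of 652 and 590.5. In 2 DN cells the copy used here was the shallower one, and 1 barcode was among the cycling cells of both libraries. Without shared barcodes the shares were 5.11% (483 of 9458) in CD4 and 4.00% (368 of 9205) in DN, and gene counts without them are given beside the counts they touch.

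The sort labels held in the cycling cells. Cd4 was seen in 362 of the 489 cycling CD4 T cells and in 0 of the 404 cycling DN T cells. Cd8a had 0 UMIs in cycling CD4 and 1 UMI in cycling DN T cells, and Cd8b1 had 22 and 7 UMIs. The gamma delta receptor constant gene Trdc had 31 UMIs in 3 cycling CD4 T cells and 2 UMIs in cycling DN T cells. Most markers of other lineages were near 0, with summed levels in cycling CD4 and DN T cells of 3.47 and 1.76 CPM (counts per 1000000 UMIs) for 4 B cell genes, 12.4 and 4.05 for 7 myeloid genes, and 1.16 and 1.59 for 5 tubule genes. Other genes of the gamma delta list did reach 50 CPM. Over those that did, median log2 ratios of cycling over other cells lay between 0.08 and 1.13 in CD4 under the alternative settings. In DN they lay between 0.27 and 0.50. Over the natural killer genes Ncr1 and Eomes the sums were 0.496 and 12.2 CPM. Over 4 endothelial genes they were 130.05 and 91.6 CPM against 132 and 45.5 in the other cells, nearly all of it Pecam1, an adhesion molecule that T cells also carry, which was 2-fold higher in cycling DN T cells (91.2 against 45.2 CPM). The defining endothelial genes Kdr and Plvap had 0 UMIs in the cycling cells of both libraries.

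The 4 genes that chose the cells were spread unevenly over them. In cycling CD4 T cells Mki67 stood at 607 CPM (3674 UMIs in 74.0% of the cells), Top2a at 683 (4135 UMIs, 86.9%), Birc5 at 263 (1592 UMIs, 43.1%) and Pclaf at 501 (3029 UMIs, 47.4%). In cycling DN T cells they stood at 517, 662, 214 and 412 CPM, in 65.1%, 88.6%, 37.1% and 44.6% of the cells. Top2a was thus seen in the most cells and Birc5 in the fewest in both libraries. The other cells also had Top2a, at 26.7 CPM in CD4 and 14.1 in DN, and Mki67 at 11.3 and 5.20. A single gene of the 4 carried all rule UMIs in 127 (26.0%) of the CD4 and 136 (33.7%) of the DN cells, and all 4 genes were seen in 146 (29.9%) and 113 (28.0%). These values are those the cells were selected on and are given as a description.

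**Figure D1:**
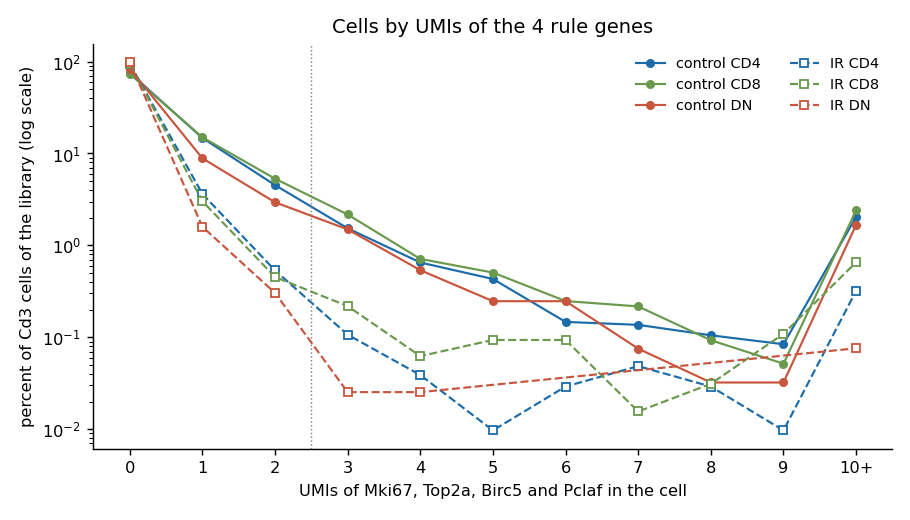
Percent of the Cd3 barcodes of each of the 6 libraries (vertical, log scale) by the UMIs summed over Mki67, Top2a, Birc5 and Pclaf in the cell (horizontal, 10 or more pooled); filled circles are control, open squares IR, the dotted line is the threshold, and shares of 0 are not drawn. Of the control CD4 and DN barcodes 7194 and 7806 had 0 UMIs, and the last class rises because it pools all cells from 10 UMIs on, 195 and 156 in these libraries.

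The threshold of 3 UMIs had no gap around it. Just outside it, 431 CD4 and 274 DN barcodes had 2 UMIs, and just inside it, 146 and 139 had 3. Among the cells that met the rule, 208 CD4 and 189 DN T cells had 3 or 4 UMIs, 86 and 59 had 5 to 9, and 195 and 156 had 10 or more. The class with 10 or more was 39.9% of the cycling CD4 and 38.6% of the cycling DN T cells, and it held 11212 of 12430 (90.2%) and 9277 of 10247 (90.5%) of their rule UMIs. The summed level was therefore set largely by these cells, while most cells that met the rule had few UMIs. Median depth climbed with the class, from 9525 UMIs at 3 or 4 through 11980 to 19362 at 10 or more in CD4, and from 12035 through 14395 to 22412 in DN.

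Cell cycle genes outside the rule separated these classes. Over 36 replication genes the CD4 cells stood at 1081, 1356, 1445, 2891 and 6471 CPM with 1, 2, 3 or 4, 5 to 9 and 10 or more rule UMIs, and at 989 with none. The DN cells stood at 948 CPM with none and at 1099, 1226, 1745, 2524 and 5700 in the same order. Replication genes thus went up over the whole range of classes in both libraries. Over 43 mitosis genes the CD4 cells with 3 or 4 rule UMIs stood at 917 CPM against 665 with none, those with 5 to 9 at 1418 and those with 10 or more at 8124. In DN these levels were 879 against 628, 1246 and 7435 CPM. Mitosis genes were thus concentrated in the class with 10 or more. The 67 clustered histone genes, whose RNA is made in S phase, stood at 880 CPM in CD4 cells with 3 or 4 rule UMIs against 989 with none, and at 8289 with 10 or more. In DN they stood at 862 against 1138 and at 7275 CPM. The tubulins and Stmn1 were left out of the mitosis set after their values were seen.

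**Figure D2:**
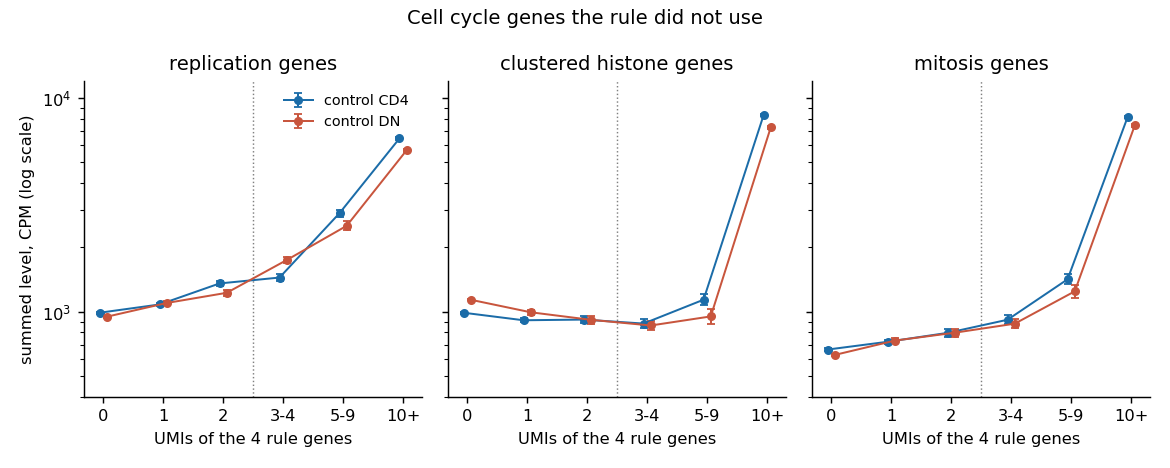
Summed level in CPM (vertical, log scale) of the replication, mitosis and clustered histone genes in Cd3 barcodes with 0, 1, 2, 3 to 4, 5 to 9 and 10 or more UMIs of the 4 rule genes (horizontal), control CD4 and control DN; bars are exact 95% Poisson intervals. The 3 sets lie between 628 and 1745 CPM up to 4 rule UMIs and reach 5700 to 8289 CPM in the class with 10 or more.

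Single genes gave the same picture. Stmn1, which destabilises microtubules and is abundant in dividing cells, stood at 18.5 CPM in CD4 cells with no rule UMI, 77.0 at 3 or 4, 314 at 5 to 9 and 1592 at 10 or more. In DN it stood at 8.37, 89.5, 234 and 1362 CPM. Ccnb2, a mitotic cyclin, stood at 12.2 CPM at 3 or 4 rule UMIs in CD4, then 93.4 and 257, and at 9.10, 75.6 and 285 in DN. Rrm2, a subunit of ribonucleotide reductase, stood at 14.4, 30.8 and 367 CPM in CD4 and 6.07, 10.2 and 266 in DN, so it was low in both lower classes. Against the other cells, the 294 CD4 cells with 3 to 9 rule UMIs had 28 genes at least 2-fold higher and 4 lower of 4423 at 50 CPM. The 195 with 10 or more had 473 higher and 238 lower of 4788. In DN the 248 cells with 3 to 9 had 53 higher and 31 lower of 4450, and the 156 with 10 or more had 417 and 291 of 4762.

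Cell by cell, at 3000 UMIs each, the class with 10 or more rule UMIs held the highest mean levels of division RNA. Mean replication UMIs per cell were 15.6, 4.00 and 2.39 in CD4 cells with 10 or more, with 3 to 9 and in the other cells, and 12.9, 3.94 and 2.25 in DN. Mean mitosis UMIs were 21.2, 2.54 and 1.63 in CD4 and 19.2, 2.20 and 1.51 in DN. The cells with 3 to 9 were thus closer to the other cells than to the class above them. At least 2 UMIs of each set were held by 180 of 194 CD4 cells with 10 or more rule UMIs (92.8%, 88.2 to 96.0) and 137 of 156 DN cells (87.8%, 81.6 to 92.5). With 3 to 9 these were 44.4% of 277 CD4 and 42.7% of 241 DN cells, beside 31.3% and 26.9% of the other cells.

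Within the class with 10 or more, most cells were of 3 kinds by replication and mitosis RNA. At a cut of 10 UMIs per set, taken after the plot of single cells was seen, 33 of 194 CD4 cells (17.0%, 12.0 to 23.1) were high in replication alone, 95 (49.0%, 41.7 to 56.2) in both and 56 (28.9%, 22.6 to 35.8) in mitosis alone. Of 156 DN cells 47 (30.1%, 23.1 to 38.0) were high in replication alone, 51 (32.7%, 25.4 to 40.7) in both and 44 (28.2%, 21.3 to 36.0) in mitosis alone. The remaining cells of the class were below the cut in both sets. The share with replication alone was larger in DN and that with both larger in CD4, but each was 1 library and the difference was not tested. Of the cells with 3 to 9 rule UMIs, 25 of 277 in CD4 and 23 of 241 in DN were also high in replication alone, while 3 and 0 were high in both and 2 and 1 in mitosis alone. Cells rich in replication RNA alone thus lay on both sides of 10 rule UMIs. Among the other cells 0 of 7869 in CD4 and 0 of 8538 in DN were high in both. Histone genes of the clusters, which neither set holds, were highest in cells high in both. Their mean was 30.1 UMIs per cell there, 5.70 with replication alone and 15.1 with mitosis alone in CD4. In DN these means were 30.3, 4.38 and 16.6, beside 2.37 and 2.77 in other cells of CD4 and DN that were low in both.

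**Figure D3:**
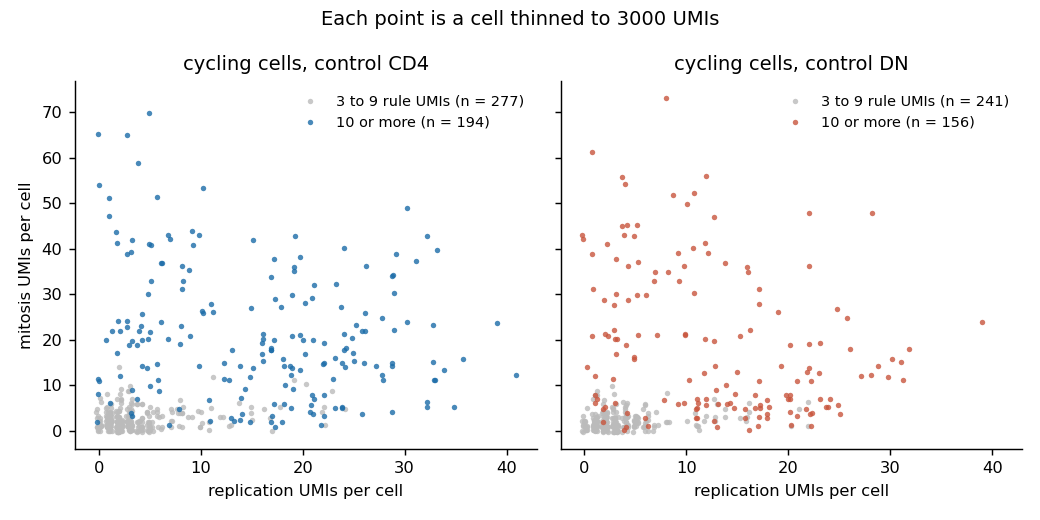
Each point is 1 cell thinned to 3000 UMIs, with its UMIs of 36 replication genes (horizontal) and 43 mitosis genes (vertical); cycling cells are split into those with 3 to 9 and with 10 or more rule UMIs, control CD4 and control DN, and points are shifted a little at random so that they can be seen. Cells with 10 or more rule UMIs reach 41 replication and 70 mitosis UMIs in CD4 and 39 and 73 in DN, while those with 3 to 9 lie mostly near the origin.

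Across all genes, cycling and other cells of a library were compared on UMIs summed over the cells, in CPM over features other than mitochondrial genes, ribosomal protein genes and Malat1. A gene was counted when it reached 50 CPM in the higher group and differed at least 2-fold. In CD4, 240 of 4618 genes were higher (5.2%) and 48 lower (1.04%) in the cycling cells. In DN, 229 of 4610 were higher (4.97%) and 84 lower (1.82%). Cell cycle genes from 12 lists by role made up 101 (42.1%) of the higher genes in CD4 and 88 (38.4%) in DN, and 0 of the lower genes, with the 4 genes of the rule not among them. Of 152 listed cell cycle genes found, 113 reached 50 CPM in CD4 and 101 in DN, and a gene low in the other cells could reach it only through the cycling cells. The counts and medians by list below follow in part from this minimum. The rule chose the cells on the same RNA, so these counts describe the cells and are no test. Without the 5% of barcodes with the most UMIs the counts were 116 higher and 12 lower in CD4 and 106 and 52 in DN. Without shared barcodes they were 231 and 46 in CD4 and 197 and 67 in DN.

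The CD4 and DN comparisons, which share no library, gave similar ratios. Of the genes counted as higher, 188 were counted in both, 78.3% of the CD4 and 82.1% of the DN genes. Of those counted as lower, 38 were in both, 79.2% of the CD4 and 45.2% of the DN genes. Over 4843 genes the log2 ratios had a Pearson r of 0.97, given as a description across genes, which are not independent replicates, of cells chosen by the same 4 genes. In 0 genes were the counted directions opposite. In 21 of the 4843 genes the ratios of cycling over other cells differed at least 2-fold between DN and CD4.

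**Figure D4:**
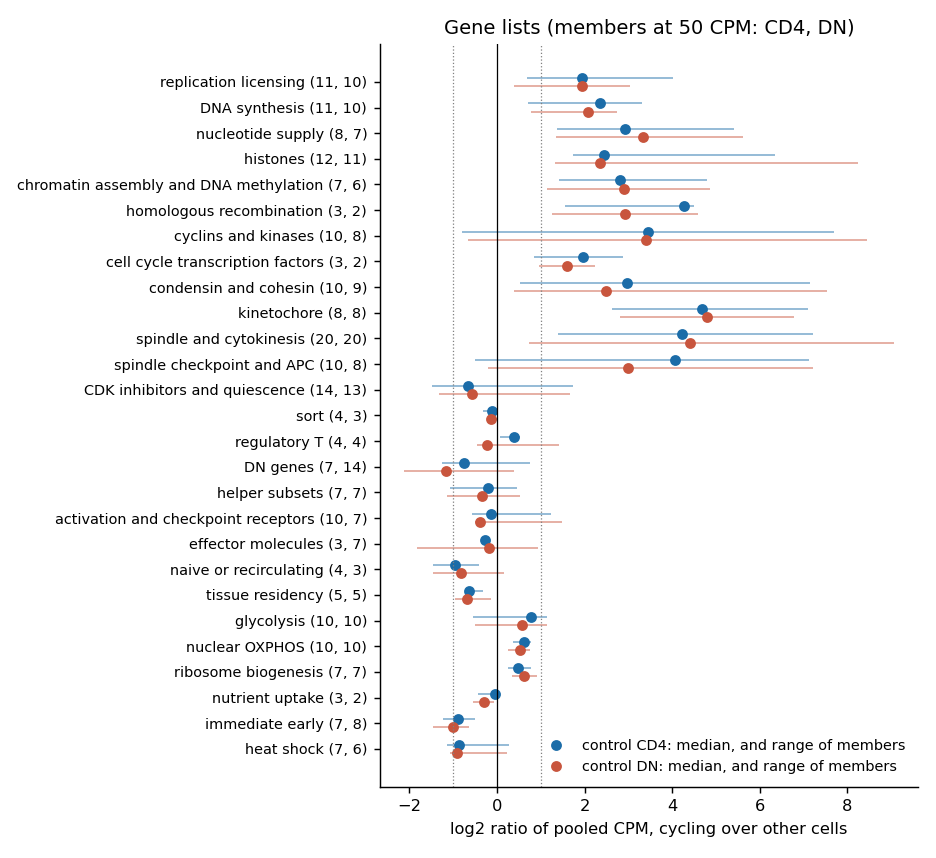
Log2 ratio of pooled CPM, cycling over other cells (horizontal), for 27 gene lists (vertical) in control CD4 and control DN; points are medians over list genes at 50 CPM or more, lines run from the lowest to the highest gene, and numbers in brackets count those genes. The 12 cell cycle lists have medians between 1.60 and 4.80, and the lists of T cell state, metabolism and stress lie between -1.17 and 0.78.

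Replication licensing genes, which load and fire replication origins, were higher in 9 of 11 at 50 CPM in CD4 and 8 of 10 in DN. Over all genes 5.2% and 4.97% were higher. The median log2 ratios of the list were 1.95 and 1.93, beside -0.06 over all genes in both libraries. Mcm3, a subunit of the replicative helicase, stood at 187 CPM in cycling against 25.3 in other CD4 T cells and at 188 against 23.0 in DN. Mcm6, another helicase subunit, stood at 205 against 56.6 and 209 against 55.7. Gmnn, the geminin that blocks a second licensing, stood at 166 against 38.9 and 153 against 38.3. Both libraries thus held these genes at close to the same level. Cdt1, the loading factor that geminin binds, did not reach 2-fold, at 61.3 against 37.9 CPM in CD4 and 74.7 against 57.1 in DN.

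DNA synthesis genes were higher in 10 of 11 in CD4 and 9 of 10 in DN, beside 5.2% and 4.97% of all genes. Nucleotide supply genes were higher in 8 of 8 and 7 of 7. Pcna, the sliding clamp of DNA polymerase, stood at 409 against 169 CPM in CD4 (log2 ratio 1.27) and 352 against 172 in DN (1.03). Pcna was thus well represented in the other cells too. Pola1, the catalytic subunit of polymerase alpha, stood at 299 against 49.0 and 206 against 33.5. Lig1, which seals Okazaki fragments, stood at 184 against 23.7 and 193 against 28.9. In nucleotide supply the ratios were larger. Rrm2 stood at 209 against 4.88 CPM in CD4 (5.42) and 145 against 2.93 in DN (5.62), and Tyms, thymidylate synthase, at 202 against 16.5 (3.62) and 134 against 9.63 (3.80). Dut, which removes dUTP, stood at 367 against 64.4 and 326 against 51.4.

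Histone genes on the list were higher in 12 of 12 in CD4 and 11 of 11 in DN, beside 5.2% and 4.97% of all genes. Hist1h1b, a linker histone, stood at 944 against 24.5 CPM in CD4 (log2 ratio 5.27, counting interval 5.18 to 5.36) and 646 against 16.9 in DN (5.26, 5.16 to 5.36). H2afz, a variant histone made in all phases, stood at 1410 against 318 and 993 against 284. Members of the histone clusters are similar in sequence, and a read could be assigned to a close copy. Chromatin genes were higher in 7 of 7 and 6 of 6. Hmgb2, a DNA-bending protein, stood at 3301 against 615 CPM and 3663 against 689, and Dnmt1, the maintenance DNA methyltransferase, at 204 against 76.4 and 191 against 86.3. The chromatin remodeller Hells stood at 150 against 21.3 and 168 against 16. Of the homologous recombination genes, the helicase Blm stood at 53.9 against 18.3 CPM in CD4 and 53.2 against 22.2 in DN. Under the alternatives the median log2 ratio of this list lay between 3.71 and 4.97 in CD4 and between 2.12 and 3.56 in DN.

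Cyclins and kinases were mixed. In CD4 6 of 10 and in DN 5 of 8 were higher, beside 5.2% and 4.97% of all genes. Ccna2, the S phase and G2 cyclin, stood at 90.4 against 0.437 CPM in CD4 and 81.2 against 0.234 in DN. Ccnb2 stood at 159 against 2.07 (log2 ratio 6.26, 5.97 to 6.56) and 163 against 0.827 (7.62, 7.22 to 8.05), and Cdk1, its kinase partner, at 123 against 3.95 and 96.9 against 2.04. The D cyclins went the other way without reaching 2-fold. Ccnd2 stood at 445 against 620 CPM in CD4 and 667 against 871 in DN, and Ccnd3 at 546 against 947 and 621 against 978. Cdk4, the kinase they bind, stood at 146 against 73.7 and 148 against 85.2. Among cell cycle transcription factors, few reached 50 CPM, and Tfdp1, the dimer partner of E2F proteins, stood at 104 against 26.9 and 90.9 against 19.2.

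Of the 12 cell cycle lists, kinetochore genes had the largest median ratios over genes at 50 CPM. A gene low in the other cells could reach that level only through the cycling cells, so this ranking follows in part from the minimum. Kinetochore genes were higher in 8 of 8 in both libraries, beside 5.2% and 4.97% of all genes. Their medians were 4.67 in CD4 and 4.80 in DN. Cenpf, a protein of the outer kinetochore, stood at 223 against 1.61 CPM and 201 against 1.84. Cenpa, the centromeric histone, stood at 209 against 30.6 and 207 against 18.8, and the motor Cenpe at 142 against 4.46 and 143 against 2.87. Spindle and cytokinesis genes were higher in 20 of 20 in CD4 and 19 of 20 in DN. Stmn1 stood at 942 against 20.7 and 782 against 10.0, and the tubulin genes Tubb5 and Tuba1b at 1254 against 250 and 805 against 110 CPM in CD4. Racgap1, of the central spindle, was the exception in DN, at 182 against 111 CPM. Of the condensin and cohesin genes, the condensins were higher, with Smc2 at 268 against 40.4 and 237 against 42.1. The cohesin core genes Smc1a, Smc3 and Rad21 did not reach 2-fold, with log2 ratios of 0.85, 0.52 and 0.90 in CD4 and 0.73, 0.39 and 0.83 in DN.

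Spindle checkpoint and anaphase-promoting complex genes were higher in 9 of 10 in CD4 and 6 of 8 in DN, beside 5.2% and 4.97% of all genes. Ube2c, a ubiquitin-conjugating enzyme of that complex, stood at 241 against 3.19 CPM in CD4 (6.24) and 220 against 1.48 in DN (7.21). Cks1b and Cks2, which bind cyclin-dependent kinases, stood at 178 against 7.64 and 234 against 51.8 in CD4, and at 158 against 5.18 and 209 against 41.1 in DN. Pttg1, securin, was at 61.6 against 87.0 CPM in CD4 and 73.4 against 85.1 in DN, lower in the cycling cells but short of 2-fold. Of the genes with the largest ratios outside the lists, Neil3, a DNA glycosylase, stood at 55.5 against 0.513 CPM in CD4, Cdca3 at 88.1 against 1.41 in CD4 and 66.8 against 0.843 in DN, and Clspn, claspin of the replication checkpoint, at 137 against 7.08 in CD4. Cdkn3 stood at 57.2 against 0.796 and Tacc3, a spindle protein, at 83.0 against 4.70 in DN.

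Promoters of the 2 gene sets differed in the short motifs they held. Windows of 250 bases before to 50 after the start were read from RefSeq annotation on GRCm38.p6, with 30 of 36 replication genes (34 windows) and 38 of 43 mitosis genes (40 windows) matched. The letters TTTNNCGC, like those bound by E2F factors, were searched on both strands and were in 12 replication windows (35.3%) and 4 mitosis windows (10.0%), beside 5.17% of all 32851 windows. The cell cycle homology region TTTGAA was in 5 replication (14.7%) and 30 mitosis windows (75.0%), beside 17.9% of all. CCAAT was in 19 (55.9%) and 29 (72.5%), beside 37.4% of all, and the last pair occurred together in 2 (5.88%) and 24 (60.0%), beside 6.95%. Matches were allowed to overlap, a match is a description and not a site or a cause, and the genes were sorted by known role and not by these values. The promoters of 3 genes of high level in each set are shown, so that these letters can be seen in place, 5′ to 3′ on the gene's strand with every match on either strand in capitals. They are Pola1 (chrX:93632106-93632405, minus strand), Pcna (chr2:132253131-132253430, minus strand) and Dut (chr2:125247265-125247564, plus strand) of the replication set. Of the mitosis set they are Ube2c (chr2:164769679-164769978, plus strand), Cks2 (chr13:51644982-51645281, plus strand) and Ube2s (chr7:4812291-4812590, minus strand).
Pola1: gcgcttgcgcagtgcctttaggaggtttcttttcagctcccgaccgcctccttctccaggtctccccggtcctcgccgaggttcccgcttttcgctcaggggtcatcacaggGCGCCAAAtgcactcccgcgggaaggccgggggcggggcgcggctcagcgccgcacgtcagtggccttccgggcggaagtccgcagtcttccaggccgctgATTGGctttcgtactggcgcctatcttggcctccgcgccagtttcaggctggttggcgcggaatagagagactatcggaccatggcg
Pcna: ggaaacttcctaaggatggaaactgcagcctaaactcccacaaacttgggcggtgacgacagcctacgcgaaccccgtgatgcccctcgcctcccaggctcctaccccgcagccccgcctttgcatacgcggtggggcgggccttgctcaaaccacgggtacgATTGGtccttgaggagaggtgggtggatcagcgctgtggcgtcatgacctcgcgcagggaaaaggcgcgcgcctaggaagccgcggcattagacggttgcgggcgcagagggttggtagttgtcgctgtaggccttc
Dut: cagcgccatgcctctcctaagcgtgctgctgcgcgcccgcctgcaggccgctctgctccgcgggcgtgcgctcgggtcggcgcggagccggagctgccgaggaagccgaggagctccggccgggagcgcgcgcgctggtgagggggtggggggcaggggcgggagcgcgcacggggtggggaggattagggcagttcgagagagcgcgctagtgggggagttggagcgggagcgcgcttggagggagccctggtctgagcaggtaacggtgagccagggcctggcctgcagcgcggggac
Ube2c: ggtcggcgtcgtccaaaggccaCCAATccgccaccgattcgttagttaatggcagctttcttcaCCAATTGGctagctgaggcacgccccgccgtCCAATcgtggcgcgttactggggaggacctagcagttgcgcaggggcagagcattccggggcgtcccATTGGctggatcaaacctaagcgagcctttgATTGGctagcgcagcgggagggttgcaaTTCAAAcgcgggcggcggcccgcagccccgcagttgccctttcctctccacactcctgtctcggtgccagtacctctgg
Cks2: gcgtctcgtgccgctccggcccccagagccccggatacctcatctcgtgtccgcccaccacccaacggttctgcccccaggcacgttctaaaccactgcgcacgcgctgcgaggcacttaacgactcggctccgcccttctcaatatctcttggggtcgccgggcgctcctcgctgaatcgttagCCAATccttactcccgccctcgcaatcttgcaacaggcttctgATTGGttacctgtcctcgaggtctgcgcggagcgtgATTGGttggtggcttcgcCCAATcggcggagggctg
Ube2s: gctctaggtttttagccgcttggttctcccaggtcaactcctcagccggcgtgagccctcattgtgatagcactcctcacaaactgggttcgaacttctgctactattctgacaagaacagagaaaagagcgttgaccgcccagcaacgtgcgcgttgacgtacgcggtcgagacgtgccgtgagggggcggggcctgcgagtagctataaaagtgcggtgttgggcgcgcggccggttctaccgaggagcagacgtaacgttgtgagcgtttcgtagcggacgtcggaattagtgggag
The Pola1 window held 1 E2F-like match and 1 CCAAT, the Pcna window 1 CCAAT, the Ube2c window 1 TTTGAA and 6 CCAAT, and the Cks2 window 4 CCAAT. The windows of Dut and Ube2s held none of these letters. In the cells, Pola1 stood at 299 and 206 CPM and Ube2c at 241 and 220 CPM in cycling CD4 and DN T cells, as given above.

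Genes of quiescence were mostly level or lower in the cycling cells. In CD4 2 of 14 were higher and 4 lower (median log2 ratio -0.66), and in DN 1 and 2 of 13 (-0.57). Over all genes 5.2% were higher and 1.04% lower in CD4, and 4.97% and 1.82% in DN. Klf2, a factor of resting and recirculating T cells, stood at 175 CPM in cycling against 429 in other CD4 T cells and at 114 against 283 in DN. Txnip, which limits glucose uptake, stood at 273 against 641 and 279 against 637. Btg1, an antiproliferative factor, stood at 859 against 1572 and 1249 against 2105, short of 2-fold in both, as was Cdkn1b at 167 against 253 and 160 against 238. By rule class, Klf2 went from 457 CPM with no rule UMI to 139 with 10 or more in CD4, and in DN from 298 to 71.2 with 5 to 9 and 90.6 with 10 or more. Over the same classes Btg1 went from 1598 to 576 CPM in the CD4 library and from 2120 to 802 CPM in DN. The members that were higher were Cdkn2c, the p18 inhibitor, at 67.7 against 20.2 in CD4 and 62.4 against 19.6 in DN, and Rbl1, p107, at 74.2 against 36.9 in CD4. Both are known to be made in cycling cells.

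Il7r, the receptor for the survival cytokine IL-7, stood at 98.3 against 269 CPM in CD4 (log2 ratio -1.45) and 54.8 against 150 in DN (-1.45). In CD4 the other large differences downward included Ly6c1, at 18.0 against 55.6, Satb1, a chromatin organiser, at 270 against 698, Gpr183, an oxysterol receptor for migration, at 65.6 against 168, and Lef1, a factor of naive T cells, at 221 against 471. Naive or recirculating genes were lower in 2 of 4 at 50 CPM in CD4 and 1 of 3 in DN, beside 1.04% and 1.82% of all genes.

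Immediate early and heat shock genes, which tissue digestion and sorting are known to induce, were in part lower in the cycling cells. Of the immediate early genes 2 of 7 were lower in CD4 (median -0.88) and 4 of 8 in DN (-1.02), beside 1.04% and 1.82% of all genes, with Jun at 850 against 2012 CPM and 904 against 2354, and Fos at 672 against 1238 (short of 2-fold) and 604 against 1385. Of the heat shock genes 3 of 7 were lower in CD4 and 3 of 6 in DN. Hspa1a stood at 524 against 1150 and 400 against 822 CPM, and its near-identical copy Hspa1b at 815 against 1786 and 788 against 1616. The abundant chaperone Hspa8 did not follow, at 2545 against 2105 and 2486 against 2112.

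Genes of glycolysis, oxidative phosphorylation and ribosome biogenesis were mostly above the other cells but short of 2-fold, while nutrient uptake genes had medians of -0.04 in CD4 and -0.31 in DN. Glycolysis genes were counted as higher in 2 of 10 in both libraries, beside 5.2% and 4.97% of all genes. Their medians were 0.78 in CD4 and 0.57 in DN, beside -0.06 over all genes, and fell as low as 0.15 and 0.19 under the alternatives. Gapdh stood at 1586 against 732 CPM and 1451 against 661, and Tpi1 at 166 against 75.4 and 169 against 82.6. Ldha, lactate dehydrogenase, stood at 594 against 343 and 620 against 360, short of 2-fold. It went up with the class, from 334 CPM with no rule UMI to 689 with 10 or more in CD4 and from 352 to 719 in DN. Nuclear genes of oxidative phosphorylation were counted in 0 of 10 in both, though all 10 had ratios above 0, with medians of 0.61 and 0.52 (lowest under the alternatives 0.16 and 0.10), and ribosome biogenesis genes in 0 of 7, with medians of 0.48 and 0.61 (lowest -0.13 and 0.02). Nucleolin (Ncl) stood at 781 against 562 and 1019 against 666 CPM.

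Genes that mark DN T cells were lower in the cycling than in the other DN T cells. Of 14 listed genes 9 were lower and 0 higher, with a median log2 ratio of -1.17, while 84 of 4610 genes (1.82%) were lower across the library. The list was drawn from earlier results of these same libraries, so it is not independent evidence of its direction. Klrb1c (NK1.1, chromosome 6, 128778485 to 128789215) stood at 48.4 CPM in cycling against 210 in other DN T cells (-2.12, -2.29 to -1.94). Klrc1 (NKG2A, chromosome 6, 129666015 to 129678973) stood at 81.9 against 300 (-1.87, -2.01 to -1.74), and Klre1 at 95.8 against 224. Fcer1g, a signalling adaptor of these receptors, stood at 89.3 against 199, Kcnq5, a potassium channel, at 1055 against 2405, and Lyst, a lysosome trafficking gene, at 602 against 1558. Genes of the Klr family have close copies, and a read could be assigned to another member.

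The remaining DN genes did not reach 2-fold in either direction. Klra1, of the same gene cluster on chromosome 6, stood at 139 CPM in cycling against 140 in other DN T cells, the chemokine Xcl1 at 816 against 801, and Fgl2 at 494 against 585. Trgv2, a gamma chain variable gene, stood at 244 against 187. The Klr genes thus did not move as 1 group. Of the cytotoxic genes Prf1 (perforin) was lower, at 16.2 against 57.8 as was the chemokine gene Ccl4 at 26.8 against 90.4, while Gzma stood at 137 against 71.2, with 251 CPM in cells with 3 or 4 rule UMIs (497 UMIs), 10.2 with 5 to 9 and 91.0 with 10 or more, and Gzmb at 79.1 against 69.1, neither at 2-fold. Zbtb16, the PLZF factor of innate-like T cells, stood at 372 against 257.

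At 3000 UMIs per cell Klrb1c was seen in 9.32% of cycling (6.65 to 12.6) against 29.4% of other DN T cells (28.5 to 30.4), beside 1.08% of the other control CD8 T cells, which should largely lack it. Unthinned, these shares were 21.5% and 46.7%. Fcer1g was seen in 8.56% against 19.0%, beside 1.21% in CD8, and Kcnq5 in 61.5% against 83.7%, beside 12.0% in CD8. Zbtb16 was seen in 46.9% (41.9 to 51.9) against 35.3%, beside 0.317% in CD8. By rule class, Klrb1c went from 225 CPM in DN cells with no rule UMI to 127, 99.5, 60.2, 50.9 and 40.2 with 1, 2, 3 or 4, 5 to 9 and 10 or more. Klrc1 went from 318 to 198, 173, 93, 55.2 and 80.7, and Kcnq5 from 2530 to 1733, 1473, 1452, 709 and 873. In CD4, Klrb1c went from 56.3 CPM with no rule UMI to 16 with 10 or more, and Kcnq5 from 1550 to 802. Klrc1 in CD4 was uneven, at 70.1 with none, 23.8 with 3 or 4, 61.6 (58 UMIs) with 5 to 9 and 19.4 with 10 or more. The DN list had a median of -0.75 there, with 2 of 7 genes at 50 CPM lower and 0 higher, beside 1.04% of all genes lower. In both libraries Klrb1c and Kcnq5 were already lower with 1 rule UMI than with none, in CD4 at 28.0 against 56.3 and 1052 against 1550 CPM. The classes are cut on the values the rule used and are given as a description.

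**Figure D5:**
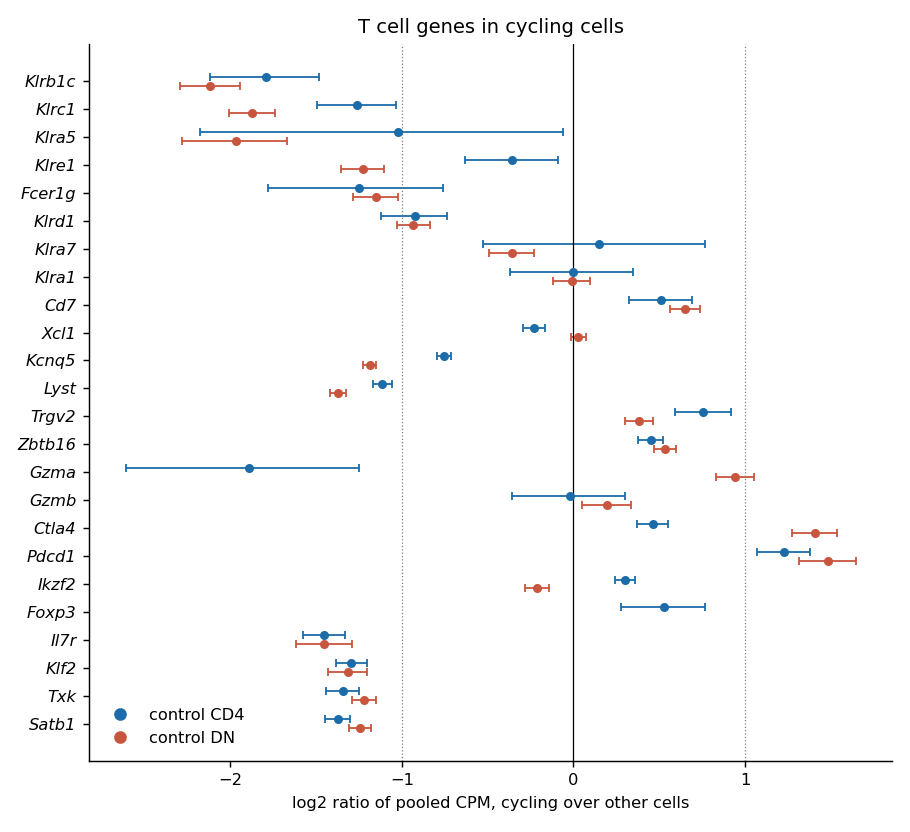
Log2 ratio of pooled CPM, cycling over other cells (horizontal), for T cell genes (vertical) in control CD4 and control DN; bars are counting intervals, the solid line is no difference and the dotted lines are 2-fold. In DN, Klrb1c lies at -2.12 and Klra1 at -0.01, Pdcd1 lies at 1.22 in CD4 and 1.48 in DN, and Foxp3 is drawn for CD4 alone.

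Ctla4 and Pdcd1, inhibitory receptors made after activation, were higher in the cycling DN T cells. Ctla4 stood at 108 against 40.6 CPM in DN (1.41, 1.28 to 1.53) and at 191 against 139 in CD4, where it did not reach 2-fold. Pdcd1 stood at 66.2 against 23.7 in DN (1.48) and 71.6 against 30.6 in CD4 (1.22), and it is named for its values, which were seen first. At 3000 UMIs per cell Ctla4 was seen in 15.9% of cycling against 5.46% of other DN T cells, and Pdcd1 in 14.9% (11.5 to 18.7) against 3.99%. No library here lacks these genes, since they were also in 13.5% and 10.8% of the other control CD8 T cells. Among 10 activation genes at 50 CPM in CD4 and 7 in DN, Pdcd1 was the single one at 2-fold, beside 5.2% and 4.97% of all genes higher, while Ctla4 was on the list of regulatory T cell genes. Cd69, the early activation antigen, stood at 300 against 435 and 315 against 440, and Cd28 at 566 against 706 and 414 against 539.

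In the CD4 library, the regulatory T cell genes Foxp3, Tnfrsf4, Ikzf2 and Ctla4 were highest in the class with 3 or 4 rule UMIs. Foxp3, the lineage factor, stood at 26.8 CPM in cycling against 18.6 in other CD4 T cells, below the level at which genes were counted. It was at 16.5 CPM with no rule UMI, 27.0 with 1, 21.1 with 2, 53.2 (43.1 to 65.0) with 3 or 4, 29.7 with 5 to 9 and 11.5 (8.14 to 15.8) with 10 or more. At 3000 UMIs it was seen in 6.37% of cycling (4.34 to 8.97) against 2.58% of other CD4 T cells (2.24 to 2.95), in 8.30% of cells with 3 to 9 rule UMIs and 3.61% of those with 10 or more. The share in other DN T cells, which should lack it, was 0.0351%. The pooled level of cells rich in division RNA was thus not above that of the other cells. Tnfrsf4 (OX40) went from 56.1 with none to 150 CPM at 3 or 4 and 57.2 at 10 or more, and Ikzf2 (Helios) from 349 to 683 and 334. Over the list, 0 of 4 genes at 50 CPM were counted in CD4.

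Helper genes were mostly level. Bcl6, a follicular helper factor, was the single one counted, at 45.3 against 95.4 CPM in CD4 and 49.1 against 108 in DN. Tbx21 (T-bet) stood at 240 against 299 and 262 against 370, Ifng at 389 against 450 and 431 against 477, and Gata3 at 157 against 173 and 156 against 197. Il4 stood at 123 against 93.3 in CD4 and 72.2 against 116 in DN, not counted in either. Il17a had 0 UMIs in cycling cells of both libraries. Residency genes were counted in 0 of 5 in both, with Cxcr6, a chemokine receptor of tissue T cells, at 518 against 802 and 653 against 1163.

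Set directly against each other, cycling DN and cycling CD4 T cells were compared gene by gene. Of 4475 genes 40 were higher in DN (0.894%) and 28 lower (0.626%), with 0 listed cell cycle genes among the higher and 1, a histone, among the lower. A further histone gene outside the lists, Hist1h2an, was among the higher (log2 ratio 1.09), and stood at -0.13 without the 5% of barcodes with the most UMIs. It is named after its values were seen. The other DN against the other CD4 T cells gave 49 higher (1.11%) and 47 lower (1.07%) of 4401. Cd4 had 0 UMIs in cycling DN T cells against 165.9 CPM in cycling CD4 T cells. Gzma, uneven over the rule classes as given above, had a log2 ratio of DN over CD4 of 5.37, Klra7 of 4.46, Fcer1g of 3.95, Klra1 of 3.50 and Gzmb of 2.48. Of the DN genes on the list 7 of 10 at 50 CPM were higher in cycling DN than in cycling CD4 T cells, with a median of 1.38. So the receptors that were lower in cycling than in other DN T cells were in part still higher than in cycling CD4 T cells, as with Klrc1 at 81.9 against 27.3 CPM. On the CD4 side lay Cd5, a negative regulator of receptor signalling, at 284 against 101 CPM, Tnfrsf4 at 94.2 against 20.6 and Fam169b at 64.6 against 3.17. The counts without shared barcodes were 51 and 31, and without the 5% of barcodes with the most UMIs 63 and 49. Each side was 1 library, so a library difference and a cell type difference cannot be told apart.

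The same rule in the other libraries gave 620 of 9685 control CD8 T cells (6.4%, 5.92 to 6.91), 61 of 10301 IR CD4 T cells (0.592%, 0.453 to 0.760), 82 of 6413 IR CD8 T cells (1.28%, 1.02 to 1.58) and 5 of 3951 IR DN T cells (0.127%, 0.0411 to 0.295). The IR libraries were shallower, with median depths of the other cells of 2433.5 UMIs in CD4 and 1520 in DN. At 3000 UMIs the shares were 1.43% (1.04 to 1.93) in IR CD4 and 1.06% (3 of 282, 0.220 to 3.08) in IR DN T cells, beside 2.27% and 1.61% in control, and 7359 and 3669 shallower IR cells were left out. In CD8 the order was the opposite at that depth, with 8.37% (58 of 693, 6.42 to 10.7) in IR and 3.29% in control, and 5718 shallower IR cells left out. The intervals of control and IR DN overlap at that depth. At 1000 UMIs the rule kept 1.06% of control CD4 (88 of 8287), 0.703% of control DN (59 of 8388), 0.121% of IR CD4 (11 of 9079) and 0 of 3389 IR DN T cells, which allows a share of up to 0.109%. In CD8 it kept 1.44% of control (121 of 8419) and 0.478% of IR cells (27 of 5653), so the order in CD8 turned with the depth chosen. Treatment, library and depth cannot be told apart here. The replication set stood at 4415 CPM in the control and 5669 CPM in the IR cycling CD4 T cells, and the mitosis set at 4932 and 6956 CPM.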

How the data were processed

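The deposited files are whole-number UMI counts per gene and barcode, 1 matrix per library, made by the authors with Cell Ranger on mm10. The submitters' processing notes name version 6.0.1, and the file headers name 5.0.1 for the control and 6.0.1 for the IR libraries. No source used here says whether intronic reads were counted. The cells, gene lists and named genes were chosen with earlier results of these data known. Of 32285 features, 13 mitochondrial genes, 90 ribosomal protein genes and Malat1 were left out of the totals behind CPM. UMIs were summed over the cells of a group, with exact 95% Poisson intervals, a sum of 0 set to 3 counts for ratios, and no test, since each group is 1 library. Cells were thinned to 3000 UMIs without replacement for shares, and to 1000 as an alternative. Named genes were up to 4 of the highest level per list, all of the sort, regulatory T, DN and helper lists, and the 10 largest ratios each way outside the cell cycle lists. Others given in the text (Pdcd1, genes singled out within a list) were picked after their values were seen. Scripts were tested on simulated data. Gene positions are from GENCODE M21. Python 3.11.15 (numpy 2.4.6, scipy 1.17.1, pandas 2.3.3, matplotlib 3.10.9) and R 4.3.3 were used, with edgeR 4.0.16 for TMM factors in an alternative only.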

Additional observations from a re-analysis of the deposited data

Results flagged for a closer look

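Barcodes without a UMI of Cd3d, Cd3e or Cd3g, which the comparisons leave out, also held RNA of the 4 rule genes. In the control CD4 library 7 of 251 such barcodes (2.79%) had at least 3 rule UMIs, above the 1.2% that a count of 0 allows. Of these 7 barcodes 4 also occur in another control library. In the control CD8 library these were 4 of 166 (2.41%), above 1.81%, of which 1 occurs in another control library. The Cd3 barcodes of the CD4 library met the rule in 5.14%, and the barcodes without Cd3 had a median depth of 1560 UMIs in CD4 and 1072 in CD8. Any count of 4 or more passes this limit, so the comparison is a weak one. In the control DN library 3 of 78 barcodes without Cd3 met the rule (3.85%, exact interval 0.800 to 10.8), a share whose interval includes those of the other control libraries.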

How the results depend on the processing

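Of 102 alternative values of the shares and gene counts, 47 stayed within their limits and 55 moved. Of those of the named genes, 2524 stayed within their counting intervals and 1883 moved. Of those of the list medians, 523 stayed within their limits and 57 moved. No gene that was chosen by the naming rule and counted at 2-fold reversed direction. Named genes short of 2-fold were not checked for a reversal. Of all genes counted, Ccl1 went from a log2 ratio of 1.14 to -1.18 in DN and from 1.03 to -1.70 in DN over CD4 without the 5% of barcodes with the most UMIs, Hist1h2an from 1.09 to -0.13 in DN over CD4 under the same setting, and Gm2245 from 1.06 to -0.89 in DN with at least 10 rule UMIs. The share of cycling CD4 and DN T cells was 5.14% and 4.34% as reported, 9.67% and 7.28% with at least 2 rule UMIs, 2.95% and 2.31% with at least 5, and 2.05% and 1.68% with at least 10, the last added after seeing the data. It was 3.29% and 2.84% without the 5% of barcodes with the most UMIs, 2.27% and 1.61% at 3000 UMIs per cell, 1.06% and 0.703% at 1000, 3.92% and 3.65% without Mki67 in the rule, and 3.04% and 2.29% without Top2a. Genes higher and lower in cycling CD4 T cells, 240 and 48 as reported, were 116 and 12 without the 5% deepest barcodes, of which 112 and 7 were among those reported. They were 374 and 147 with at least 5 rule UMIs, 473 and 238 with at least 10, 509 and 146 at a minimum of 10 CPM, 7170 and 1031 at none, and 535 and 312 at 1.5-fold. The number lower was 25 on mean CPM per cell, 26 within a common UMI range and 29 on thinned cells. In DN, 229 and 84 as reported, they were 106 and 52 without the deepest barcodes (97 and 44 among those reported), 358 and 216 with at least 5 rule UMIs, 417 and 291 with at least 10, 548 and 226 at 10 CPM, 7570 and 1170 at no minimum, and 474 and 384 at 1.5-fold. Cycling DN over cycling CD4 T cells, 40 and 28 as reported, gave 63 and 49 without the deepest barcodes, 62 and 43 on thinned cells, 130 and 95 at 10 CPM, 2291 and 1932 at no minimum, and 133 and 78 at 1.5-fold. The number lower was 16 with at least 5 and 13 with at least 10 rule UMIs. The cause was not tested beyond the settings themselves. TMM factors gave 247 and 46 in CD4, 233 and 84 in DN and 43 and 28 between them. Under all alternatives run the 12 cell cycle lists kept positive medians over the genes that reached 50 CPM as reported. Genes low in the other cells reached it only through the cycling cells, so this follows in part from the minimum and is no test. A comparison of cycling cells with cells of 0 rule UMIs could not be run between the cycling CD4 and DN T cells. No paired analysis was possible because the labels give no replicate numbers and each group is 1 library, for which reason no replicate could be left out either.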
